A study of Rattus norvegicus with 24 samples.

Results

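Oligodendrocytes (OLs) that matured in the presence of dolutegravir (DTG), an inhibitor of the HIV-1 integrase, were compared with untreated OLs. The comparison rests on 8 of the 24 libraries of the series, 4 of DTG-treated and 4 of untreated OLs, which were chosen by their labels. All cells derived from primary rat OPCs (oligodendrocyte precursor cells), isolated from cortices of newborn Sprague Dawley pups and purified by shaking them off mixed glial cultures, which leaves some other cells. Untreated OLs went through 24 hours of proliferation and 72 hours of differentiation without drug or vehicle. DTG-treated OLs had 8 µM DTG through both stages, a multistage exposure. Vehicle-treated OLs, of which there were also 4 libraries, had 0.04% DMSO over the same times. The replicates, called cultures 1 to 4 here, came from independent litters, and every culture gave a library of each treatment.

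OLs arise from OPCs and build myelin, the membrane sheath that speeds conduction along axons. A maturing OL makes large amounts of myelin lipid and protein, which loads its endoplasmic reticulum (ER). The integrated stress response (ISR) is a shared answer of cells to ER stress, amino acid shortage and some mitochondrial faults. Kinases that sense these conditions phosphorylate the translation factor eIF2α, most protein synthesis slows, and the transcription factor ATF4 is made. ATF4 switches on genes for amino acid uptake and synthesis, for feedback on the response itself and for secreted stress factors.

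The 8 libraries held 13241279 to 18499994 counts on genes. The file of untreated culture 3 was counted on another gene list than the other 7, with 30560 instead of 32883 genes, so the comparison was limited to the 21651 identifiers that every file holds. Only 4520 of them (20.9%) had the same exonic length in both lists. That library stood apart, since 221 of the 11909 genes tested lay over 16-fold from the other untreated OLs, against 1 to 3 for the others. It alone set the first principal component of the 500 most variable genes, which held 84.5% of the variance (score -94.3, all others 12.4 to 15.2). Results are therefore also given without culture 3. As a check on the identifiers made without OL data, the untreated OPCs of culture 3, whose file uses the same other list, were compared with the mean of the DMSO-treated and DTG-treated OPCs of that culture, and 10837 of the 11909 genes lay within 1 log2 unit. Over such genes PC1 and PC2 held 31.8% and 28.0% of the variance, and PC2 put every DTG-treated OL (-15 to -4.78) below every untreated OL (5.74 to 14.8) (two-sided exact permutation test, p = 0.0286, the smallest that 4 against 4 allows). This set of genes was chosen after seeing the data, and on its PC1 the exact permutation test gave p = 0.6. On PC2 the exact permutation test gave p = 0.343 with all identifiers and p = 0.143 over genes of equal exonic length. After a variance-stabilizing transformation, the exact permutation test on PC2 gave p = 0.0286. The plot of both sets of components shows that on the genes counted alike culture 3 lay beside culture 2.

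**Figure D1:**
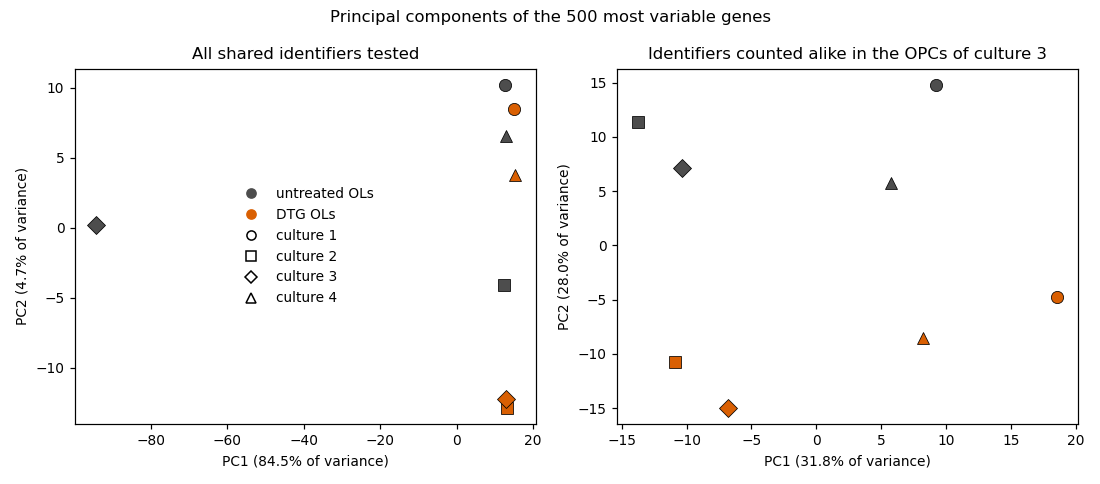
Scores of the 8 libraries on principal components 1 and 2 (x and y axes, arbitrary units), with colour for treatment and symbol for culture. With all identifiers (left) untreated culture 3 lies alone at -94.3 on PC1. With identifiers counted alike in the OPCs of culture 3 (right), a set chosen after seeing the data, PC2 separates the treatments and PC1 does not.

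The OL identity was checked on the named markers. Mbp was at 3580 to 9090 CPM in untreated OLs and at a mean of 234 ± 106 CPM (SD, n = 4) in untreated OPCs, and Pdgfra, the OPC marker, at 138 to 284 and 682 ± 210 CPM. Levels of OPCs were scaled over 16 libraries and those of OLs over 12.

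Gene symbols could be given to 1719 of the 11909 genes, because only the study's supplementary tables pair identifiers with symbols. Those tables list genes that the study called in DTG-treated against DMSO-treated OLs or during differentiation. Named genes are thus not a fair sample of all genes, and most members of many pathways could not be looked up. The counts below give how many members were named and tested. They are to be read beside the 1719 named genes, of which 67 were called, 44 higher and 23 lower.

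DTG-treated OLs differed from untreated OLs in 107 of 11909 genes (0.898%), of which 69 were higher (0.579%) and 38 lower (0.319%). The call, made with edgeR's quasi-likelihood test and the culture as a block, required an adjusted p under 0.05 and a change of more than 1 on the log2 scale. All 107 changed in 1 direction in 4 of 4 cultures, and 67 had a symbol. The levels of the treatments did not overlap in 82 of the 107, while 7.46% of all genes tested did not overlap. The 107 were selected on these same values, so their larger share follows from the selection. Of the 15 named genes that rose most, 10 were ISR regulators, secreted stress factors or genes of amino acid transport and synthesis. The largest falls included an ER calcium pump, a regulator of glucose uptake and myelin genes. The number of calls depended on which culture was left out. Without culture 3, 138 of 11898 genes were called (1.16%), 96 of them shared with the full set, whereas without culture 1, 2 or 4 no gene passed (2078, 2044 and 2571 at an unadjusted p under 0.05). In each of these fits 95 to 103 of the 107 genes kept a change over 1. All 107 kept their direction, which 1 direction in all 4 cultures makes nearly certain, so this is no further evidence. Without the block, 31 genes were called. The plot of differences by culture shows the 15 largest rises and falls among genes with a symbol.

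**Figure D2:**
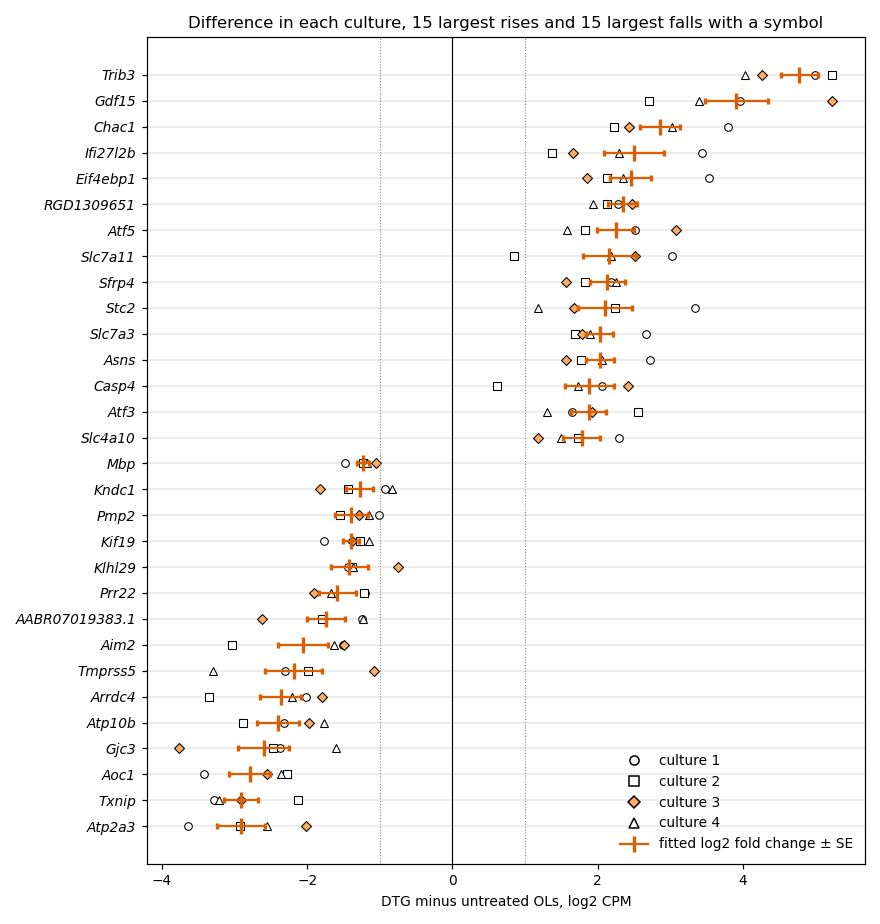
Difference between DTG-treated and untreated OLs in log2 CPM (x axis) for the 15 called genes with a symbol that rose most and the 15 that fell most (rows). Symbols give the 4 cultures, orange diamonds culture 3, and bars the fitted log2 fold change ± SE, from 4.78 for Trib3 to -2.91 for Atp2a3. Dotted lines mark a change of 1, and every point of a gene lies on the same side of 0.

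Of 16 transcription factors and regulators of the ISR, 10 could be named and tested, and 9 rose. Their median log2 fold change was 1.67, beside -0.002 over all genes tested. Their symbols come from the study's tables of called genes, which used the same DTG libraries, so the direction of the named members is not independent evidence. The same limit holds for every list below, the myelin list included. Values below are CPM, the reads of a gene relative to the TMM-scaled size of its library, in the order of cultures 1, 2, 3 and 4.

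Trib3 encodes a pseudokinase that binds ATF4 and dampens it. It measured 1.35, 0.31, 1.11 and 0.77 CPM in untreated OLs and 46.8, 16.5, 23.8 and 14.7 CPM in DTG-treated OLs. The lowest treated culture lay over 10 times above the highest untreated one. This was the largest rise among the named genes, with a log2 fold change of 4.78 (SE 0.26, edgeR adjusted p = 0.00636). The gene (ENSRNOG00000007319) lies on the minus strand of chromosome 3, at 147813473 to 147819571 in the larger group of files, for which the submitters' processing notes name Rnor_6.0.

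Chac1, an enzyme that degrades glutathione, measured 8.78, 24.3, 28.9 and 12.3 CPM in untreated and 123, 114, 156 and 101 CPM in DTG-treated OLs. Its log2 fold change was 2.86 (SE 0.28, edgeR adjusted p = 0.0216). Every treated culture lay above every untreated one.

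Among the transcription factors, Atf4, the central effector, rose from 133, 124, 151 and 223 CPM to 321, 249, 332 and 413 CPM. Its log2 fold change of 1.07 (SE 0.08, edgeR adjusted p = 0.0146) had a small error, because the cultures moved by like amounts. Atf5, which is activated in ER and mitochondrial stress, rose from 145, 258, 120 and 193 CPM to 827, 920, 1010 and 578 CPM. Its log2 fold change was 2.25 (SE 0.26), and 1.98 without culture 3, where its identifier was counted 2.03 log2 units lower in the untreated OPCs than in the treated OPCs. Atf3, an early-response factor downstream of ATF4, rose from 2.11, 1.86, 2.85 and 3.65 CPM to 6.88, 11.5, 11.1 and 9.19 CPM (log2 fold change 1.88, SE 0.24, and 1.83 without culture 3). Cebpb, which encodes a leucine zipper factor that pairs with ATF4, rose by 1.46 (SE 0.27, edgeR adjusted p = 0.0479) on the log2 scale. Its differences ran from 0.66 to 2.22, the largest in culture 3, and without that culture its log2 fold change was 1.18. Against DMSO, in a fit over the 12 OL libraries, Cebpb did not pass (1.23, edgeR adjusted p = 0.0545). Creb3l1, an ER-bound factor, rose by 1.40 (SE 0.13) on the log2 scale. Cebpg was the member that was not called, since its log2 fold change of 0.69 (SE 0.12, edgeR adjusted p = 0.0446) was under the minimum of 1.

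Regulators of growth and translation were in the same list. Eif4ebp1, the repressor of cap-dependent translation, measured 15.3, 38, 47.8 and 22.5 CPM in untreated and 178, 166, 173 and 115 CPM in DTG-treated OLs, a log2 fold change of 2.45 (SE 0.29). Sesn2, an inhibitor of the nutrient sensor mTORC1, measured 72.5, 108, 124 and 94.2 CPM in untreated and 307, 249, 287 and 215 CPM in DTG-treated OLs (log2 fold change 1.42, SE 0.17). In neither gene did the treatments overlap.

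Secreted stress factors were represented by 3 named genes of 5. Gdf15, a hormone released by stressed cells, was 0.83, 1.94, 0.56 and 1.03 CPM in untreated and 14.9, 13.4, 25.7 and 12.1 CPM in DTG-treated OLs. Its log2 fold change was 3.91 (SE 0.43, edgeR adjusted p = 0.0302). Culture 3 gave the largest difference (5.23), its untreated OPCs had the gene 1.50 log2 units below the treated OPCs, and the log2 fold change without it was 3.45. Stc2, a secreted glycoprotein, rose by 2.10 (SE 0.38) on the log2 scale, from 1.99, 1.47, 5.51 and 5.3 CPM to 21.4, 7.42, 18 and 12.2 CPM. Lif, a cytokine of the interleukin 6 family, was at 0.19 to 1.01 CPM in untreated and 0.9 to 2.84 CPM in DTG-treated OLs and did not pass the test, with a log2 fold change of 1.76 (SE 0.34, edgeR adjusted p = 0.0537).

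**Figure D3:**
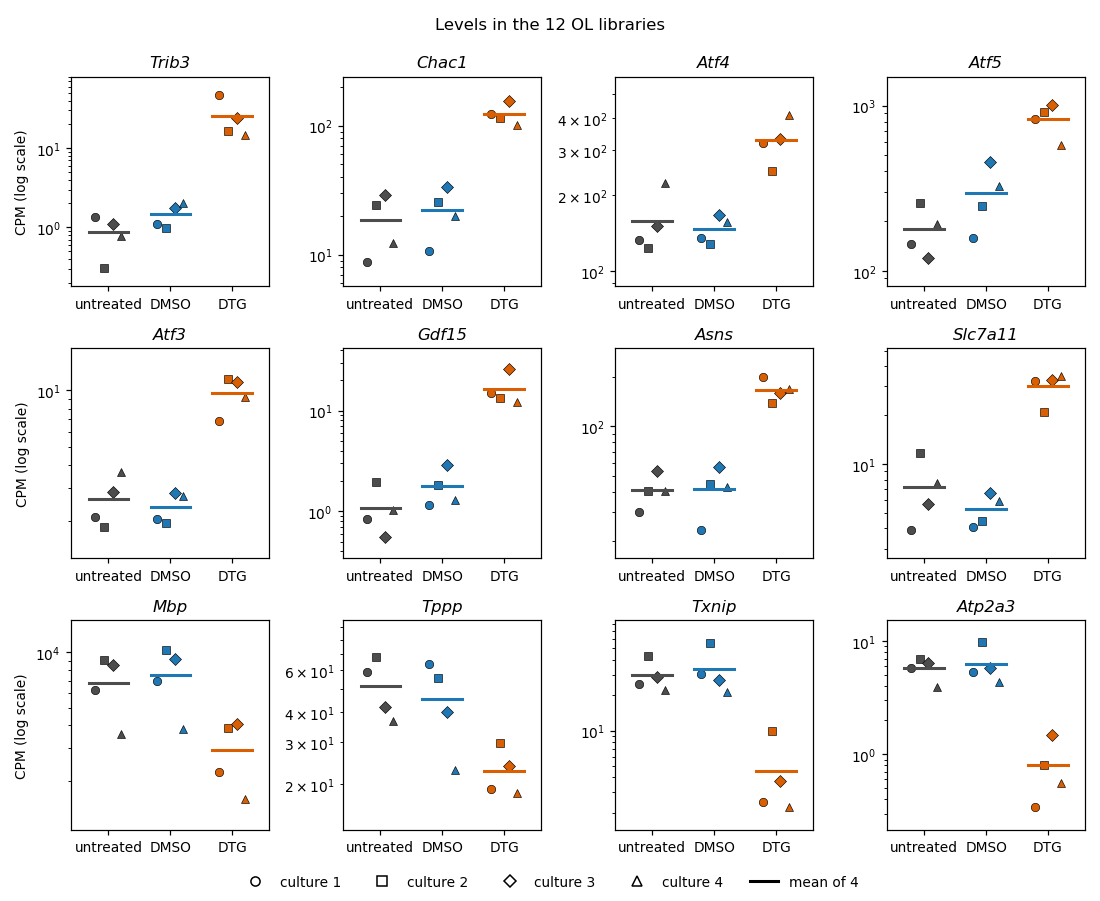
Level in CPM (y axes, log scale) of 12 genes in the 12 OL libraries, grouped by treatment on the x axes. Symbols mark cultures and lines the mean of 4. In the upper 8 panels every DTG-treated library lies above every untreated one, and in the panels of Tppp, Txnip and Atp2a3 every one lies below. The Mbp levels of the treatments overlap, although each culture fell.

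Promoters were inspected for the C/EBP-ATF response element, the site through which ATF4 and its partners act, because the genes above moved together. The letters TGATGNAA (TTNCATCA on the other strand) were searched in the 250 bases before the RefSeq start of each gene (build GRCr8). Of 44 risers with a symbol, 24 had a promoter sequence, and 3 of them (12.5%) held a match, Trib3, Chac1 and Slc7a1. None of 19 promoters of genes that fell did. Over all 33469 promoters the share was 3.4%, and over the 1279 tested genes with a symbol and a promoter it was 1.95%. A match is only a run of letters, and its use in these cells was not measured. The 3 promoters are shown 5′ to 3′ in the direction of the gene, with the match in capitals, which starts 21, 167 and 30 bases before the gene.
Trib3, chr3:161275534-161275783, minus strand: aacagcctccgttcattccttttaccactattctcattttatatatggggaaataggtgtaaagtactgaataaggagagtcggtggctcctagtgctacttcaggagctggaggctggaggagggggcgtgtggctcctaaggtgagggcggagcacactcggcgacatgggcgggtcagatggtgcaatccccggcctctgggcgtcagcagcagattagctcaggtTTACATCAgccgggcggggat
Chac1, chr3:126795881-126796130, plus strand: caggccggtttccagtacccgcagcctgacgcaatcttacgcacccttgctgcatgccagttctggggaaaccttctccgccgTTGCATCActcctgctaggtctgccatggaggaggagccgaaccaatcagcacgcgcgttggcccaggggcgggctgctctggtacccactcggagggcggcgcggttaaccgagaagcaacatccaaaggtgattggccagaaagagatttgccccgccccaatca
Slc7a1, chr12:11664238-11664487, plus strand: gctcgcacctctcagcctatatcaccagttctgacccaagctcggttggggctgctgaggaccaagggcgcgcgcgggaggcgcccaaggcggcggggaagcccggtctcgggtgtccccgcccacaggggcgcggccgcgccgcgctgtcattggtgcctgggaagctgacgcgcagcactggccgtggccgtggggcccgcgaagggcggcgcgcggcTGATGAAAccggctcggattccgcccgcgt

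Of 11 amino acid transporters, 7 were named and tested and 5 rose, with a median log2 fold change of 1.33. Slc7a11, the cystine importer that feeds glutathione synthesis, rose by 2.16 (SE 0.36, edgeR adjusted p = 0.0426) on the log2 scale. It measured 3.91, 11.6, 5.64 and 7.57 CPM in untreated and 32.6, 21, 32.9 and 34.7 CPM in DTG-treated OLs, with the smallest difference in culture 2 (0.84). Slc7a3, a carrier of cationic amino acids, measured 17.2, 8.6, 8.24 and 7.15 CPM in untreated and 110, 27.9, 28.7 and 27.1 CPM in DTG-treated OLs. Culture 1 was highest under both treatments, so the differences were closer to each other than the levels (1.68 to 2.67). The neutral amino acid carriers Slc7a5 and Slc1a5 rose by 1.33 (SE 0.17) and 1.30 (SE 0.22), and the cationic carrier Slc7a1 by 1.18 (SE 0.20). Slc7a7 did not pass (2.05, SE 0.45, edgeR adjusted p = 0.0649), nor did the glutamine carrier Slc38a1, whose change was below 1 (0.51, SE 0.08).

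Asns, asparagine synthetase, was 1 of 3 named genes among 11 for amino acid and serine synthesis, and the only one called. It rose from 30.2, 40.4, 53.8 and 40.4 CPM to 201, 139, 160 and 168 CPM, a log2 fold change of 2.03 (SE 0.20, edgeR adjusted p = 0.0216). Pck2, the mitochondrial PEP carboxykinase, was 7.95, 8.44, 18.7 and 7.87 CPM in untreated and 60.7, 20.2, 27.4 and 28.5 CPM in DTG-treated OLs and did not pass (log2 fold change 1.64, adjusted p = 0.074). Its untreated level was highest in culture 3, and without that culture it passed (2.04, adjusted p = 0.0032). Cth, an enzyme of cysteine synthesis, was at 0.48 (SE 0.34).

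Of 14 folate enzymes 6 were tested. Mthfd2, which supplies one-carbon units in mitochondria, rose from 13.1, 12.1, 13.9 and 18.1 CPM to 53.3, 31.8, 39.2 and 51.1 CPM (log2 fold change 1.60, SE 0.13). Aldh1l2, its mitochondrial neighbour in the pathway, did not pass with all cultures (1.40, SE 0.36) and passed without culture 3 (1.76, adjusted p = 0.0057). The remaining 4, Shmt1, Tyms and Mtr among them, were not called, and the median of the list was 0.19.

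Other stress pathways gave fewer named members. Hmox1, the heme oxygenase under control of NRF2, measured 88.8, 49.4, 73.5 and 154 CPM in untreated and 369, 143, 198 and 303 CPM in DTG-treated OLs. The levels overlapped, but every culture rose, by 0.98 to 2.05, and the log2 fold change was 1.50 (SE 0.17, edgeR adjusted p = 0.0318). Gclm, the other named NRF2 target of 15, was not called. Of 17 p53 targets 6 were tested and Cdkn1a, the inhibitor of cyclin-dependent kinases, rose (log2 fold change 1.14, SE 0.14). Fas, a death receptor, had an adjusted p of 0.0357 at a log2 fold change of 0.97, just under the minimum. None of 3 named ER chaperone and degradation genes of 20 was called. Hsp90b1 and Sdf2l1, which help to fold proteins in the ER lumen, had log2 fold changes of -0.69 (SE 0.10) and -0.76 (SE 0.11). Edem1, the other tested member, did not fall (0.14, SE 0.12).

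Of 35 myelin protein and mature OL genes 9 were named and tested, and 6 fell, with a median log2 fold change of -1.15. Mbp encodes myelin basic protein, which compacts the sheath. It measured 6200, 9090, 8470 and 3580 CPM in untreated and 2220, 3880, 4080 and 1590 CPM in DTG-treated OLs. Levels differed widely between cultures, so the groups overlapped, yet the difference was alike in all cultures (-1.48 to -1.05). The log2 fold change was -1.23 (SE 0.09, edgeR adjusted p = 0.0146). In bulk RNA, fewer mature OLs and less RNA per mature OL cannot be told apart.

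Gjc3, the connexin 29 gene of myelinating glia, measured 18.1, 42.9, 103 and 10.6 CPM in untreated and 3.41, 7.66, 7.45 and 3.38 CPM in DTG-treated OLs. Its log2 fold change was -2.60 (SE 0.35), and -2.20 without culture 3, whose untreated OPCs also had the gene 1.54 log2 units above the treated OPCs. Tppp, a microtubule-organizing protein of OLs, measured 58.8, 67.9, 42.1 and 36.5 CPM in untreated and 19.1, 29.8, 23.8 and 18.4 CPM in DTG-treated OLs (log2 fold change -1.15, SE 0.14). S1pr5, the sphingosine receptor of mature OLs, measured 30.4, 33.7, 32.6 and 17.6 CPM and then 11.9, 14.9, 15.5 and 7.16 CPM (-1.22, SE 0.10). Adamts4, a protease made by mature OLs, had a log2 fold change of -1.13 (SE 0.09), and Pmp2, a lipid-binding protein of myelin, of -1.39 (SE 0.23).

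Mog, the outermost myelin glycoprotein, was 39.4, 41.8, 27.5 and 30.3 CPM in untreated and 24.6, 19.6, 20.2 and 19.1 CPM in DTG-treated OLs. Its adjusted p of 0.0431 passed, its log2 fold change of -0.72 (SE 0.13) did not reach the minimum. Gpd1 (-0.63) and Anln (-0.52) were not called either. Not every member of the list was higher in OLs than in OPCs. Anln was at a mean of 28.4 CPM in untreated OPCs and 1.88 CPM in untreated OLs. Pmp2 was low in both, at 1.7 and 2.53 CPM. Enpp6, an enzyme that marks newly formed OLs and the only named gene of 12 in that list, measured 76, 96, 101 and 46 CPM in untreated and 32, 56.5, 52.2 and 22 CPM in DTG-treated OLs, a log2 fold change of -1.01 (SE 0.10), just past the minimum.

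No OPC gene was called among the 4 tested of 26. Pdgfra, the receptor for the growth factor that keeps OPCs dividing, was 284, 149, 138 and 269 CPM in untreated and 209, 90, 104 and 175 CPM in DTG-treated OLs, lower in 4 of 4 cultures (log2 fold change -0.55, SE 0.08, edgeR adjusted p = 0.0357). In a fit over the 12 OL libraries its log2 fold change was -0.31 for DMSO against untreated. For DTG against DMSO it was -0.24 (edgeR adjusted p = 0.454). Among 36 cell cycle genes 33 were tested and none was called, with a median of -0.006. Their summed CPM was 517 to 874 in untreated and 517 to 892 in DTG-treated OLs. Mcm7, a subunit of the replicative helicase, had the smallest adjusted p of them (0.0339) at a log2 fold change of -0.61.

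Markers of other cells could be followed only in part. Sox9, 1 of 11 astrocyte markers, was 82.9 to 97.4 CPM in untreated and 88.3 to 125 CPM in DTG-treated OLs (log2 fold change 0.26, SE 0.09, not called). The 4 tested neuron markers of 11, Map2, Stmn2, Nefl and Gad1, summed to 67.3 to 157 and 78.9 to 114 CPM, and none was called. The single named microglia and vascular markers, Cd68 and Rgs5, were too low to be tested, and no Schwann cell marker could be named. Their part in the changes of OL genes was not tested.

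The 3 largest falls of named genes, those of Atp2a3, Txnip and Aoc1, lay outside the myelin list. Atp2a3, an ER calcium pump (SERCA3), measured 5.77, 6.97, 6.44 and 3.96 CPM in untreated and 0.34, 0.81, 1.49 and 0.56 CPM in DTG-treated OLs. Its log2 fold change was -2.91 (SE 0.33, edgeR adjusted p = 0.0318), on levels that are low in every library. Atp10b, a lipid-flipping ATPase, had a log2 fold change of -2.40 (SE 0.29). These were the 2 called genes among 5 tested of 16 P-type ATPases, and the plasma membrane calcium pumps Atp2b1, Atp2b3 and Atp2b4 were not called.

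Txnip and Arrdc4 encode arrestin-domain proteins that limit glucose uptake and are switched on together by glucose metabolites. Txnip measured 25.1, 43.5, 28.7 and 22 CPM in untreated and 2.45, 9.84, 3.69 and 2.25 CPM in DTG-treated OLs (log2 fold change -2.91, SE 0.24, edgeR adjusted p = 0.0176). Arrdc4 measured 10.3, 16, 9.91 and 13.3 CPM and then 2.45, 1.45, 2.77 and 2.76 CPM (-2.37, SE 0.28). The treatments overlapped in neither gene. These were the 2 called genes among 4 tested of 22 for glucose handling. Pfkl, a subunit of phosphofructokinase, had an adjusted p of 0.0321 at a log2 fold change of -0.94.

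Other named falls were Aoc1, a diamine oxidase (log2 fold change -2.79, SE 0.29), Tmprss5, a membrane serine protease (-2.19, SE 0.39), Aim2, a cytosolic DNA sensor (-2.06, SE 0.35), and AABR07019383.1 (-1.74, SE 0.26). They further included Prr22 (-1.59, SE 0.25), Klhl29 (-1.42, SE 0.26), the kinesin Kif19 (-1.40, SE 0.12) and Kndc1 (-1.27, SE 0.19). Tmprss5 was counted 1.64 log2 units lower in the untreated than in the treated OPCs of culture 3, and its log2 fold change without that culture was -2.61. Aoc1 was 2.57 to 9.06 CPM in untreated and 0.27 to 1.77 CPM in DTG-treated OLs. Kif19 was the most evenly changed of these, between -1.77 and -1.16 in the 4 cultures.

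Other named rises belonged to several groups. Ifi27l2b, named after interferon-inducible relatives, was 0.32, 0.39, 0.74 and 0.41 CPM in untreated and 4.77, 1.21, 2.63 and 2.54 CPM in DTG-treated OLs (log2 fold change 2.50, SE 0.42). Casp4, an inflammatory caspase, rose by 1.89 (SE 0.34), with its smallest difference in culture 2 (0.61). With Aim2 these were the called genes among 5 tested of 28 interferon and inflammasome genes, so the list moved in both directions. Sfrp4, a secreted inhibitor of Wnt ligands, rose by 2.13 (SE 0.24), and RGD1309651 by 2.35 (SE 0.20). Of 20 ion channel and transporter genes of OPCs, 12 were tested and 5 rose, among them the bicarbonate transporter Slc4a10 (1.78, SE 0.26), the AMPA receptor auxiliary protein Cnih3 (1.65, SE 0.27), the potassium channel Kcnk12 (1.49, SE 0.19) and the calcium channel Cacna1i (1.31, SE 0.20).

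Transcripts of the mitochondrial genome took a larger part of the library with DTG. They were 2.56, 2.44, 2.31 and 2.99% of gene counts in untreated, 2.64, 2.43, 2.45 and 2.11% in DMSO-treated and 4.11, 4.26, 4.87 and 5.89% in DTG-treated OLs. The share rose by 1.55 to 2.9 percentage points in 4 of 4 cultures. DTG-treated OLs overlapped neither other group (two-sided exact permutation tests that did not use the pairing by culture, p = 0.0286 each). Of 37 mitochondrial identifiers 22 were tested, 7 rose and 1 fell, 20 were higher to some degree, and the median log2 fold change was 0.81. Mt-nd1, a subunit of complex I, measured 2320, 2120, 2410 and 2880 CPM in untreated and 6660, 7460, 9090 and 8950 CPM in DTG-treated OLs (log2 fold change 1.72, SE 0.09, edgeR adjusted p = 0.00636). Other subunits of the same complex, Mt-nd2 (1.21, SE 0.17), Mt-nd3 (1.01, SE 0.07) and Mt-nd4l (1.18, SE 0.13), rose too, and Mt-nd5 did not reach the minimum (0.83, SE 0.13). Mt-co3 of complex IV (1.38, SE 0.10) and Mt-atp8 of the ATP synthase (1.26, SE 0.12) were also called. The other 2 called identifiers had no symbol, ENSRNOG00000031979, which rose (1.11, SE 0.11), and ENSRNOG00000032609, which fell (-1.01, SE 0.16). Some of these genes overlap on the mitochondrial genome, so reads of Mt-atp8 and Mt-nd4l may have been left out or split by the counting. AY172581.10, which lies on the minus strand, was at -0.95 (SE 0.24, not called). Nuclear genes of the respiratory chain could not be named. RNA was enriched for poly(A) tails, so mitochondrial levels reflect tailed transcripts. The plot of mitochondrial shares gives each library.

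**Figure D4:**
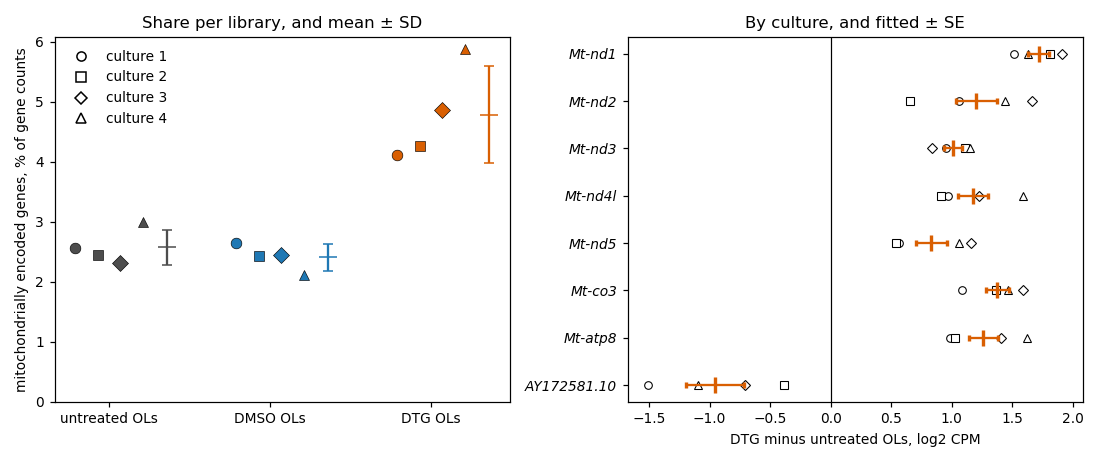
Left, share of gene counts on mitochondrially encoded genes in percent (y axis) for each of 12 OL libraries by treatment, with mean ± SD beside. Right, difference between DTG-treated and untreated OLs in log2 CPM (x axis) for the 8 named mitochondrial genes, by culture and as fitted value ± SE. All DTG-treated libraries are above 4.1%, all others below 3%, and 7 of 8 genes lie above 0 in every culture.

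The share of synthetic ERCC transcripts, which were added to equal amounts of total RNA, overlapped between the treatments, at 1.92 to 4.93% in untreated and 1.95 to 3.84% in DTG-treated OLs (two-sided exact permutation test, p = 0.743). Scaled to ERCC counts instead of TMM, 102 genes were called, 72 higher and 30 lower, and the median of all genes was 0.05.

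Vehicle was examined because untreated cultures had none, so that drug and any vehicle in the drug wells cannot be told apart in this comparison. In 1 fit over the 12 OL libraries, 0 of 12112 genes were called between DMSO-treated and untreated OLs (0%) with edgeR, 1690 had an unadjusted p under 0.05, and DESeq2 called 3, all lower. In the same fit 125 genes were called between DTG-treated and DMSO-treated OLs (1.03%). Both contrasts share libraries with the main one, so values are given side by side. The log2 fold change of DMSO against untreated was 0.79 for Trib3, 0.30 for Chac1, 0.67 for Gdf15, 0.68 for Atf5 and -0.07 for Atf4. DTG against DMSO gave 4.00, 2.59, 3.22, 1.54 and 1.15 for these genes. For the falls, DMSO against untreated gave 0.13 for Mbp, 0.12 for Txnip and 0.10 for Atp2a3, and DTG against DMSO gave -1.36, -3.01 and -2.98. Gjc3 was at -0.62 with DMSO and -2.03 between DTG and DMSO. Without culture 3, DMSO against untreated was nearer to no change for Gjc3 (-0.10), Gdf15 (0.24) and Atf5 (0.34). For Trib3 and Chac1 it was 0.86 and 0.38 without that culture. The plot of drug, vehicle and OPC responses shows the fitted changes of 28 genes of the ISR, of amino acid and one-carbon metabolism and of OLs.

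OPCs that had DTG for 24 hours served to ask whether the response differs between stages, although stage and length of exposure cannot be told apart. Between DTG-treated and untreated OPCs 0 genes were called with edgeR, and 879 had an unadjusted p under 0.05. The difference of the responses, tested as an interaction over 16 libraries, gave 0 of 12679 genes (0%) with edgeR, with 1708 at an unadjusted p under 0.05, and 90 with DESeq2. Without culture 3, where both untreated libraries use the other gene list, 113 genes passed, 61 of them higher and 52 lower in OLs, whereas without culture 1, 2 or 4 none did (671, 860 and 1116 at an unadjusted p under 0.05). Trib3 had a log2 fold change of 1.19 in OPCs against 4.78 in OLs, and its interaction of 3.60 had an adjusted p of 0.0879 with all cultures and 0.0416 without culture 3. The same adjusted p values, 0.0879 and 0.0416, were obtained for Chac1 (0.34 in OPCs), Eif4ebp1 (0.03), Mthfd2 (0.20) and Adamts4 (0.08). Slc7a11 was at 1.23 in OPCs, and its interaction of 0.93 passed in neither fit (0.494 and 0.584). Mt-nd1 was at 0.99 and Mt-nd2 at 1.24 in OPCs, with interactions of 0.72 (adjusted p = 0.293) and -0.03 (adjusted p = 0.977). Mbp was at -0.30 in OPCs (interaction -0.93, adjusted p = 0.246, and 0.0478 without culture 3).

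**Figure D5:**
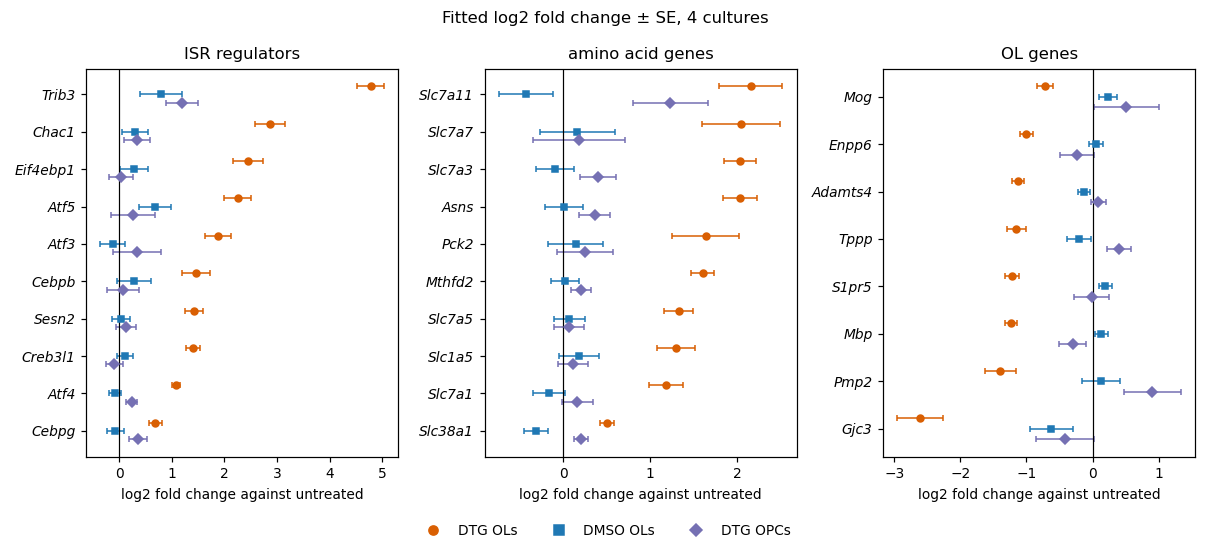
Fitted log2 fold change against untreated cells ± SE (x axes) for 28 genes (rows), with DTG in OLs as circles (8 libraries), DMSO in OLs as squares (fit over 12) and DTG in OPCs as diamonds (fit over 16). Among these 28 genes DTG in OLs reaches from 4.78 (Trib3) to -2.60 (Gjc3), and DMSO in OLs stays between -0.62 (Gjc3) and 0.79 (Trib3). Without culture 3, which is not drawn, the DMSO values of Gjc3 and Trib3 were -0.10 and 0.86.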

How the data were processed

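Libraries of untreated, DMSO-treated and DTG-treated OLs and OPCs were grouped by their labels. According to the study, poly(A) RNA was sequenced as paired-end reads, and the authors deposited whole-number counts of uniquely mapped reads in exons per gene, without normalization. The submitters' processing notes name bcl2fastq 2.20, STAR 2.5.2b, Subread 1.5.2 and Rnor_6.0. Untreated culture 3 of OLs and of OPCs was counted on another gene list, whose build is not given in the sources used here. The strand setting of the counting is likewise not given.

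Counts of the 21651 shared identifiers, without the 92 ERCC transcripts, were tested with edgeR 4.0.16 in R 4.3.3 (filterByExpr, TMM, quasi-likelihood F test with the culture as a block, Benjamini-Hochberg adjustment over all genes tested). SE was the absolute log2 fold change divided by the root of F. CPM per library was scaled with TMM over the 12 OL libraries. DESeq2 1.42.0 served as an alternative. Single values were compared with exact permutation tests in scipy 1.17.1, which did not use the pairing by culture. The edgeR test, with and without the block, was checked on simulated counts. Depth was 13241279 to 18499994 counts on genes in these 8 libraries, and counting error limits genes near 1 CPM most.

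Same-numbered libraries share a culture label, and the study made replicates from independent litters, so a shared litter is inferred. The deviations of DTG-treated and untreated OLs from their group means correlated within cultures 1 to 4 at 0.45, 0.31, 0.20 and 0.47 across genes. Unmatched libraries correlated at -0.35 to 0.14, highest for DTG-treated culture 2 with untreated culture 3, so over all genes the match of culture 3 was weak. Over identifiers counted alike in the OPCs of culture 3, the matched values were 0.60, 0.44, 0.45 and 0.62. The highest unmatched value there was 0.32, for the same 2 libraries. Replicates 2 and 3 share a date.

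The text names the 15 called genes that rose most and the 15 that fell most, each with a mean log2 CPM above 0, 1 direction in all cultures and a symbol. It also names the members of 31 lists (536 genes, 145 with an identifier), and genes the study names. The members and lists were chosen with earlier results of these data known. Lists for aminoacyl-tRNA synthetases, OL transcription factors, cholesterol synthesis, nuclear respiratory chain, thyroid hormone response, iron handling and Schwann cells had no tested member, and those for histones (2 tested), hypoxia (2) and fatty acid synthesis (1) had none called. Symbols came from the study's supplementary tables, of which only identifiers and names were used. Single values of some list members are not reported here.

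Alternatives were the fit without the block, DESeq2, other scalings and filters, identifiers of equal exonic length, a length offset, all 12 OL libraries, and leaving out each culture or library.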

Additional observations from a re-analysis of the deposited data

Results flagged for a closer look

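Among 294 groups of 4 values, 17 held a sample whose gap to its nearest neighbour was a large part of the whole range (above 0.829). Chance alone gives about 1 group in 20, which is close to the share found. A flag by itself thus does not mark a sample or gene as unusual. Untreated culture 3 was the sample in 4 of them. It had a PC1 score of -94.3 and 221 genes over 16-fold from the other untreated OLs, and it was highest for Pck2 (18.7 CPM) and Slc4a10 (1.3 CPM). Its counts come from the other gene list. The same count of genes was 1 for DTG-treated culture 2, against 0 in the other DTG-treated OLs, too small a difference to read.

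In DTG-treated OLs, culture 1 was high for Slc7a3 (110 CPM), culture 2 was low for Slc7a11 (21 CPM) and Casp4 (1.37 CPM), and culture 3 was low for Hsp90b1 (93 CPM). In untreated OLs, culture 1 was high for Slc7a3 (17.2 CPM), culture 2 low for Aldh1l2 (1.39 CPM) and culture 4 low for Kif19 (75.1 CPM). In DMSO-treated OLs, culture 1 stood out for Mcm7 (112 CPM) and for the summed OPC genes (332 CPM), culture 2 for Kif19 (168 CPM), and culture 4 for Acacb (4.48 CPM) and AY172581.10 (15.4 CPM).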

How the results depend on the processing

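Of the 107 genes called between DTG-treated and untreated OLs, all kept their direction under every alternative in which they were tested. Leaving out a culture could hardly alter the direction, since each gene changed the same way in all 4 cultures. The number called moved. It was 31 without the replicate block, 4 with the exonic length as an offset and 450 with no minimum fold change. Over identifiers of equal exonic length it was 21 of 857 (2.45%, beside 0.898% in the main fit). Of the 107 genes, 14 could be tested there and 13 stayed called. Without replicate 3 and without the block it was 12, an alternative chosen after seeing the data. Leaving out a culture gave 0 to 138 calls, and leaving out a single library without the block 6, 7, 44 and 8 (untreated cultures 1 to 4) and 5, 7, 5 and 14 (DTG-treated cultures 1 to 4). DESeq2 called 159 with and 105 without the block, and an unfiltered table gave 142 (68 higher, 74 lower). The counts under other scalings, filters, the fit over 12 libraries (147) and 4 further alternatives chosen after seeing the data, a robust fit (138), identifiers counted alike in OPC culture 3 (155), and culture 3 left out with ERCC scaling (156) or DESeq2 (84), were within 1.5 times the main count. Between DTG-treated and DMSO-treated OLs, 58 genes were called without the block and 35 to 114 without a culture. DESeq2 called 3 genes for DMSO and 90 for the difference between OLs and OPCs, and leaving out a culture gave 0 to 113 for that difference, the latter without replicate 3. The exact permutation p on PC1 was 0.0286 in the main setting and after a variance-stabilizing transformation. In both, untreated culture 3 lay alone on PC1 (-94.3 and -78.1), so this p is no measure of a separation of the treatments. The p on PC1 was 0.6 without replicate 3, 0.4 over genes of equal length and 0.6 over identifiers counted alike. On PC2 it was 0.343 in the main setting, 0.143 over genes of equal length and 0.1 without replicate 3. After the variance-stabilizing transformation and over identifiers counted alike, the p on PC2 was 0.0286. Without replicate 3 the difference in mitochondrial share was 2.09 percentage points instead of 2.21, with p = 0.1 in the exact permutation test, the smallest that 3 against 3 allows. The cause of these shifts was not tested.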

Other observations

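A further 13 genes with a symbol were called between DTG-treated and untreated OLs and belong to no list. They were chosen after their values were seen. The 9 that rose were Ddit4l2 (log2 fold change 1.55), Nmnat3 (1.30), which makes NAD in mitochondria, Prr5l (1.20), Mdfic (1.18), Mertk (1.18), a receptor for the uptake of dying cells, Rcan2 (1.17), a regulator of calcineurin, Hopx (1.12), Ubr7 (1.11) and Rims1 (1.02), a protein of the presynaptic active zone. The 4 that fell were Fam163a (-1.22), Pnlip (-1.16), Prickle1 (-1.06), a planar polarity protein, and Cnksr3 (-1.01). Pnlip, the gene of pancreatic lipase, was at a mean of 381 CPM in untreated and 169 CPM in DTG-treated OLs. Without culture 3 the log2 fold change was 0.96 for Ubr7 and -1.11 for Pnlip. All 13 kept their direction, which 1 direction in all 4 cultures makes nearly certain.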
